A study of Mus musculus with 6 samples.

Results

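The phase II conjugation enzymes were followed in primary murine hepatocytes of the C57BL/6J strain after adenoviral overexpression of Aloxe3. The set held every protein-coding gene whose symbol names a numbered glutathione S-transferase (GST), microsomal glutathione S-transferase (MGST), UDP-glucuronosyltransferase of families 1 to 3 (UGT) or sulfotransferase (SULT). The rule, which reads symbols only, gave 66 genes among the 41388 of the table: 22 GST, 3 MGST, 20 UGT and 21 SULT genes. The samples were 6 RNA-seq libraries of isolated hepatocytes that had been left overnight in growth medium, then exposed to adenovirus at about 1000000 viral particles per 1000000 cells, with RNA collected after 24 hours. In 3 libraries (replicates 1, 2 and 3) the virus encoded β-galactosidase (β-gal), the control protein, and in the other 3 (replicates 7, 8 and 9) it encoded Aloxe3, an epidermis-type lipoxygenase. Both groups therefore carried a virus, and no library came from uninfected cells. Age and sex of the donor mice and the promoter in the virus are not given in the sources used here. Nothing in the labels said whether the libraries of a group came from separate mice or cultures, so the p-values measure the spread between these libraries, which may be technical.

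Conjugation is the second phase of drug and steroid handling in the liver, in which a polar group is attached to a molecule so that it can be carried out in bile or urine. GSTs add glutathione to electrophiles, among them reactive aldehydes and epoxides made from oxidized lipids, and MGSTs are unrelated membrane proteins with the same chemistry. UGTs sit in the endoplasmic reticulum and add glucuronic acid from UDP-glucuronic acid to bilirubin, steroids, fatty acids and drugs, while SULTs are cytosolic and transfer sulfate from the donor PAPS. Many of these genes lie in clusters of close copies, and several are known targets of the transcription factors NRF2, AHR, PXR and CAR.

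Levels are given as RPKM, reads scaled to the length of the gene in kilobases and to the size of the library, and ± is the SD over the 3 libraries of a group. Library sizes, recovered from the whole-number steps of the RPKM values, ran from 25521908 to 32431318 reads, so that 1 read on a 1 kb gene was worth 0.0308 to 0.0392 RPKM. Aloxe3 itself stood at 2.04, 2.06 and 1.74 RPKM with β-gal and at 42.3, 45.8 and 56.3 RPKM with Aloxe3, a difference of 4.05 on the log2(RPKM + 1) scale (SE 0.101). The exact two-sided permutation test of these 6 values gave p = 0.1, the smallest that 3 against 3 libraries allow. Hepatocyte identity was mixed by the marker list: Alb, encoding albumin, averaged 4520 ± 26.2 RPKM with β-gal and 4440 ± 76.7 with Aloxe3, whereas Cyp2e1 averaged 2.17 and 2.38 RPKM and Tat 0.278 and 0.578. Of the 10 hepatocyte markers 9 were tested, and Ttr was lower with Aloxe3 (log2 fold change -0.30, SE 0.0435, limma adjusted p = 0.0448), the only call among them, where 0.394% of all tested genes were called. By an unadjusted p under 0.05 with limma 3 of the 9 were lower, Ttr, Serpina1a (-0.11) and Apoa1 (-0.10), where 5.42% of all tested genes were, and 1 was higher, Cps1, where 7.31% were. The adjusted p of Ttr ran up to 0.164 over the alternative settings. With voom 2 of these 9 markers passed, where 1.37% of all tested genes did, in opposite directions: Ttr was lower (adjusted p = 0.00188) and Cps1, the first enzyme of the urea cycle, was higher (adjusted p = 0.0138; log2 fold change 0.33, SE 0.0726 and adjusted p = 0.161 with limma). Cps1 stood at 0.915, 0.988 and 1.05 RPKM with β-gal and at 1.64, 1.29 and 1.56 with Aloxe3. Markers of other liver cells were present. The 5 cholangiocyte markers summed to 1510 to 1590 RPKM with β-gal and to 1580 to 1720 with Aloxe3, nearly all of it Spp1. Krt19 averaged 42.9 and 38.5 RPKM and Sox9 41.5 and 43.0. Krt7 (0.13 and 0.121 RPKM) and Epcam (0.426 and 0.265) were too low to be tested. The 8 Kupffer markers summed to 152 to 157 and 134 to 148 RPKM, mostly Cd68, with Clec4f and Vsig4 below 0.1 RPKM in mean. The 7 endothelial markers summed to 30.6 to 34.8 and 30.1 to 35.2 RPKM. Of the stellate markers Lrat was at 0 in every library, and the list summed to 3.55 to 3.78 and 3.15 to 3.62 RPKM. None of the 16 tested genes on these 4 lists passed the adjusted threshold with limma or with voom on the derived reads, and by an unadjusted p under 0.05 with limma 1 of the 16 was lower, Cd68, and 0 were higher, against the same shares of all genes. With voom Cd68 was again lower and Spp1 higher by an unadjusted p under 0.05. Their part in the values of the conjugation enzymes was not tested.

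The sequences that bear most on these results are the start regions of a run of UGT2 genes on chromosome 5, since Ugt2b5 and Ugt2b35, the enzymes called by voom (a test on derived reads), lie there. The 250 bases before the RefSeq start are shown for Ugt2b35, Ugt2b36 and Ugt2b5, which are next to one another among the measured UGT genes of the cluster, and for Ugt2b38, a close copy of Ugt2b5 that had at most 1 read in any library. Capitals mark the stretch GTTATANTTTAAC, where N is any base, the longest stretch that the windows of Ugt2b35, Ugt2b36 and Ugt2b5 have in common with at most 1 differing position inside it. It was searched for after the values were known.
Ugt2b35, GRCm38.p6 chr5:87000610-87000859, plus strand: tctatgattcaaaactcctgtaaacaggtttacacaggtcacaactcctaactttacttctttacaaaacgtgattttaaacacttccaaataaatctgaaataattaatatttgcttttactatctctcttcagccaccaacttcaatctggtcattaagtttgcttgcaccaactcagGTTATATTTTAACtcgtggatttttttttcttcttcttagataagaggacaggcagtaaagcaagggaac
Ugt2b36, GRCm38.p6 chr5:87092556-87092805, minus strand: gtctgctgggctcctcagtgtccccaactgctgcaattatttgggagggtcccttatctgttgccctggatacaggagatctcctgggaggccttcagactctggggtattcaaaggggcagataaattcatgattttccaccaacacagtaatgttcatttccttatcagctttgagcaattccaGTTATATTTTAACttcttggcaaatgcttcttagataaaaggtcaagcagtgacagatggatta
Ugt2b5, GRCm38.p6 chr5:87140341-87140590, minus strand: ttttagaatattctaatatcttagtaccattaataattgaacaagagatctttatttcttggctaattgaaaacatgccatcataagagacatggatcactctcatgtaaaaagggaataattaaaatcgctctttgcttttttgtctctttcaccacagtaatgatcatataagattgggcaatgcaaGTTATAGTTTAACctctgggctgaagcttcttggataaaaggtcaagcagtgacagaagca
Ugt2b38, GRCm38.p6 chr5:87424204-87424453, minus strand: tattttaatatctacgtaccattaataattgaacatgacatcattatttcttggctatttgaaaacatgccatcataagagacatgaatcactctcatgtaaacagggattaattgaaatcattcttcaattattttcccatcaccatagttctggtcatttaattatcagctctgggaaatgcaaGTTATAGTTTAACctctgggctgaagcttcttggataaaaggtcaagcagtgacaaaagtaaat

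On either strand the stretch was found in the start windows of 6 of 27025 genes, which is 0.0222% of them. Of these 6 genes 5 were UGT genes of this cluster, namely Ugt2b35, Ugt2b36, Ugt2b5, Ugt2b37 and Ugt2b38. The other was Pklr, the pyruvate kinase gene of liver and red cells. Ugt2b35, Ugt2b36 and Ugt2b5 held the stretch by construction, since it was taken from their windows. It began 70 bases before the start in Ugt2b35, 64 in Ugt2b36, 61 in Ugt2b5, 78 in Ugt2b37 and 64 in Ugt2b38. The stretch was thus in front of genes at 10.3 to 17.3 RPKM and of genes that had at most 5 reads, and a match of letters is a description and not a binding site. RefSeq windows were at hand for 58 of the 66 enzymes.

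A further start window is shown for Gsta3, whose 3 values with Aloxe3 all lay above those with β-gal, because it held the letters of the antioxidant response element core, TGACNNNGC, to which NRF2 is known to bind. Capitals mark that match, 121 to 113 bases before the start.
Gsta3, GRCm38.p6 chr1:21240335-21240584, plus strand: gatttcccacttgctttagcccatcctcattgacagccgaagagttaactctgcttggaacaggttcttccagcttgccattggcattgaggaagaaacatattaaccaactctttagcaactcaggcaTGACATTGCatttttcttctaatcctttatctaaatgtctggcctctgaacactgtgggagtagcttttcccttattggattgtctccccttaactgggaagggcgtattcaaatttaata

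The core was in the windows of 4 of the 58 enzymes (6.9%, namely Gsta3, Gstm5, Gstm7 and Mgst1) and in those of 11.5% of all genes. Gstm5, Gstm7 and Mgst1 had overlapping groups, with log2 fold changes of -0.04, 0.10 and -0.06. The letters GCGTG, the core to which AHR binds, were in 11 of the 58 (19.0%) and in 30.9% of all genes. GTTAAT, 1 arm of a known HNF1 site, was in 14 (24.1%), Gsta3 among them, and in 7.49% of all genes. The full HNF1 palindrome GTTAATNATTAAC was in none of the 58 and in 3 genes overall. All motifs were searched on both strands, and nothing about a factor follows from the absence of letters in these windows.

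How much of a level can be assigned to a single gene differed between the classes, because only reads with a unique and unambiguous place were counted. Of all 50-base windows in the GENCODE transcripts of a gene, the share also present in another gene was 52.1 to 80.2% for the 9 UGT1 genes, which splice different first exons to the same shared exons. It was 90.5% for Gsta1, mostly with Gm3776 and Gsta2, 49.8% for Gsta2, 93.6% for Ugt2a2, 54.3% for Gstp2 and 62.1% for Sult2a2. In all, 13 of the 66 genes shared at least 50% of their windows and 25 shared under 1%, Ugt2b35 (0.3%), Ugt2b36 (0.3%), Gsta3 (0.3%), Gsta4 (0%) and Mgst1 (0%) among them. Ugt2b5 shared 41.7%, of which the largest part, 34.8%, was with Ugt2b38. Values of genes with high shares are therefore uncertain as levels.

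**Figure D1:**
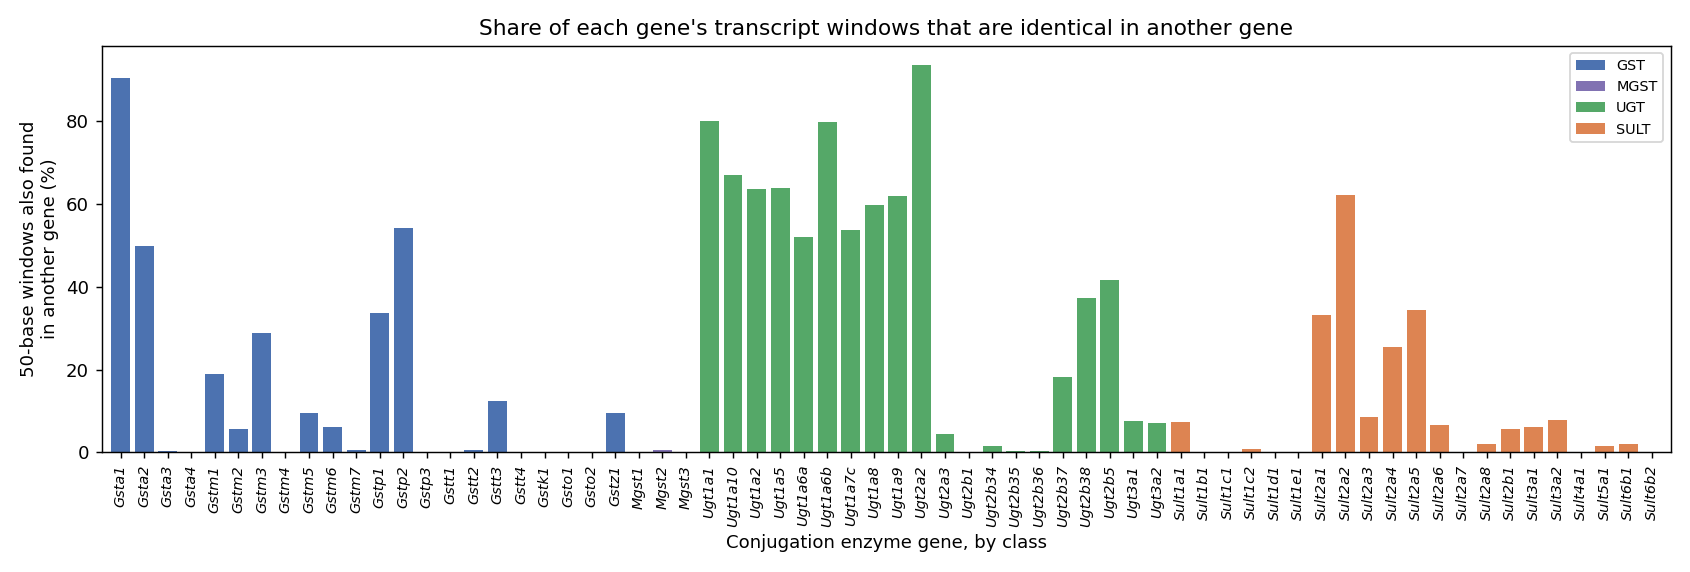
Percent of the 50-base windows of each of the 66 conjugation enzyme genes that also occur in another gene (vertical axis), with genes ordered by class along the horizontal axis and coloured by family. The UGT1 genes stand at 52.1 to 80.2% and Gsta1 at 90.5%, whereas Ugt2b35, Ugt2b36 and Gsta3 stand at 0.3%.

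The hepatocytes held a restricted set of these enzymes. Of the 66 genes 34 had a mean of at least 0.5 RPKM over the 6 libraries and were tested, and 32 did not. Of the 32, 12 had no read in any library, 7 had at most 1 to 3 reads in any library, and 13 had more, up to 43 reads. The limit fell between 0.468 RPKM for the highest gene outside and 0.602 RPKM for the lowest inside. The 12 genes without reads were Gstp2, Sult1c1, Sult2a1 to Sult2a7, Sult3a1, Ugt1a8 and Ugt2a2. A count of 0 allows up to 3 reads, which on a 1 kb gene is 0.0925 to 0.118 RPKM, counting error only. Gstp1 and Gstp3, the other pi GSTs, had at most 1 read in any library. Sult2a1 to Sult2a7 act on bile acids and hydroxysteroids, and of the 9 SULT2 genes Sult2a8 was highest, at 0.452 ± 0.133 RPKM with β-gal and 0.420 ± 0.0460 with Aloxe3.

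Most of the signal came from GSTs and MGSTs. The 66 genes summed to 564 ± 19.7 RPKM with β-gal and 584 ± 40.2 with Aloxe3. The GSTs gave 293 ± 14.3 and 307 ± 17.2 RPKM, the MGSTs 181 ± 4.07 and 175 ± 17.6, the UGTs 70.9 ± 5.41 and 82.7 ± 7.65, and the SULTs 19.2 ± 2.55 and 20.3 ± 2.28. Mgst1, Gsto1 and Gstm1 together made up 59.5% of the sum with β-gal. Mgst1, a membrane glutathione transferase and peroxidase of the endoplasmic reticulum and mitochondria, had the highest level of all. Its values were 175, 177 and 169 RPKM with β-gal and 178, 177 and 147 with Aloxe3, with no overlap with any other enzyme. Gsto1, an omega GST that reduces arsenic compounds, followed with 78.0, 85.2 and 89.8 RPKM with β-gal and 87.7, 83.3 and 82.2 with Aloxe3. Gstm1, a mu GST that conjugates epoxides and hydroxyalkenals, stood at 75.7, 78.5 and 78.0 and at 85.6, 77.6 and 82.4 RPKM. The values of Gsto1 and Gstm1 overlapped in both groups, and Gsto1 was the higher in 5 of the 6 libraries. Gsta4, the alpha GST known for its action on 4-hydroxynonenal, was next at 32.1 ± 3.94 RPKM with β-gal, below every value of Gstm1. Of the UGTs Ugt2b34 was highest with β-gal (19.3 ± 1.17 RPKM), while with Aloxe3 its values overlapped those of Ugt2b35. With β-gal it overlapped Gstt1, a theta GST acting on small halogenated compounds (18.6 ± 0.592). Of the SULTs Sult1e1, the estrogen sulfotransferase, was highest, with a mean of 7.88 RPKM.

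**Figure D2:**
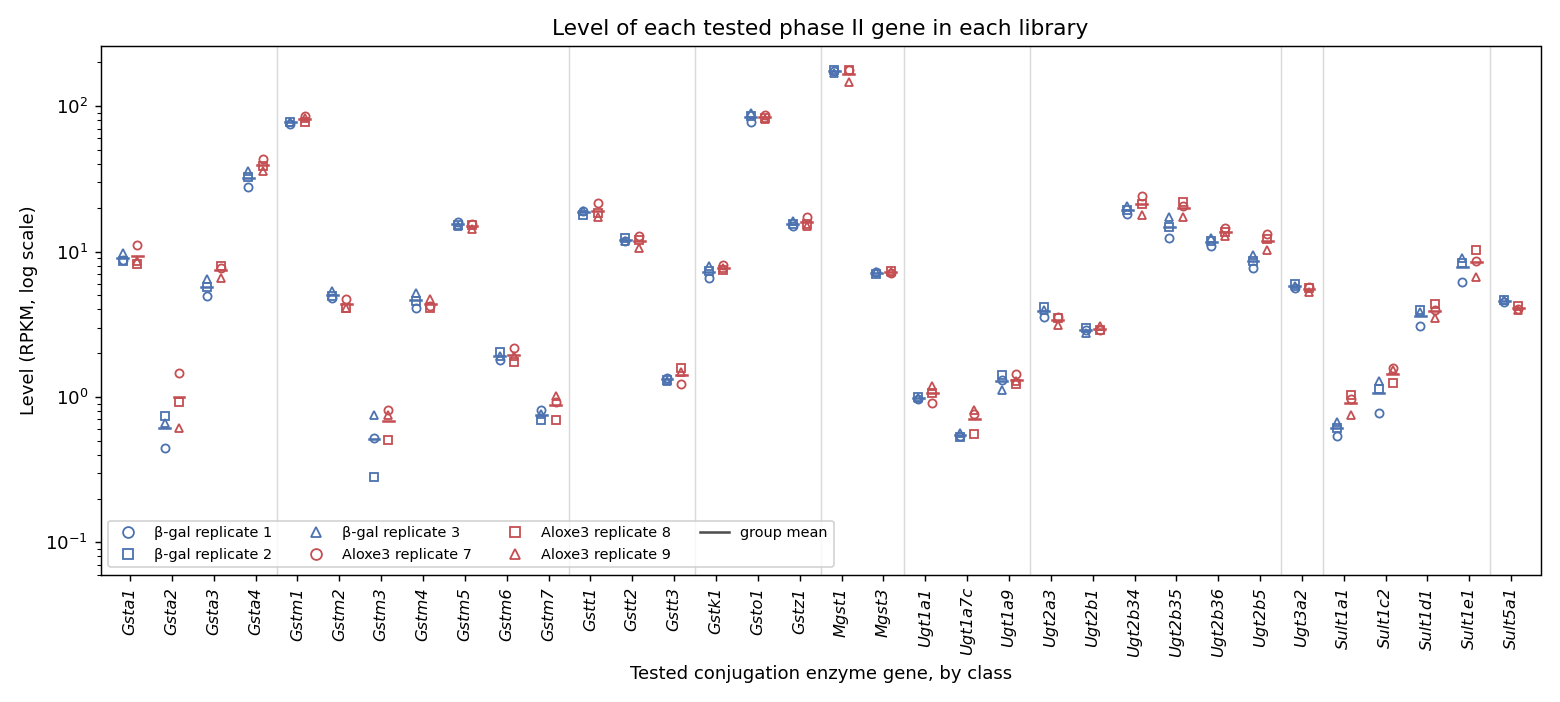
Level of each of the 34 tested conjugation enzyme genes in RPKM on a log axis, ordered by class, with each library as an open symbol (blue β-gal, red Aloxe3) and short lines for the group means. Mgst1 lies at 147 to 178 RPKM, above all others, and the blue and red symbols overlap for 26 of the 34 genes.

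Against this background no conjugation enzyme passed the adjusted threshold of 0.05 with limma on log2(RPKM + 1), 0 of 34, where 0.394% of the 12693 tested genes did (50 genes). By unadjusted p under 0.05, 7 enzymes were higher with Aloxe3 (20.6% of 34, where 7.31% of all tested genes were) and 3 were lower (8.82%, where 5.42% of all were). With voom on derived reads 2 enzymes passed the adjusted threshold, Ugt2b5 and Ugt2b35, where 1.37% of all genes did. Every β-gal library lay below every Aloxe3 library for 5 enzymes (14.7%, where this held for 11.2% of all genes), and above for 3 (8.82%, where it held for 8.71% of all). The fold change was above 0 for 26 of 34 (76.5%, where 52.4% of all genes were), and its median was 0.056 on the log2 scale against 0.005 over all tested genes. That median was 0.028 without β-gal replicate 1 and 0.027 with no filter on low values. The libraries did not contribute evenly. β-gal replicate 1 held the lowest value of the 6 libraries for 15 of the 34 enzymes (21.7% of all tested genes), and Aloxe3 replicate 7 the highest for 16 (17.0% of all), while Aloxe3 replicate 9 held the lowest for 8 (30.0% of all). In bulk RNA, fewer cells of a type and less RNA per cell cannot be told apart.

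**Figure D3:**
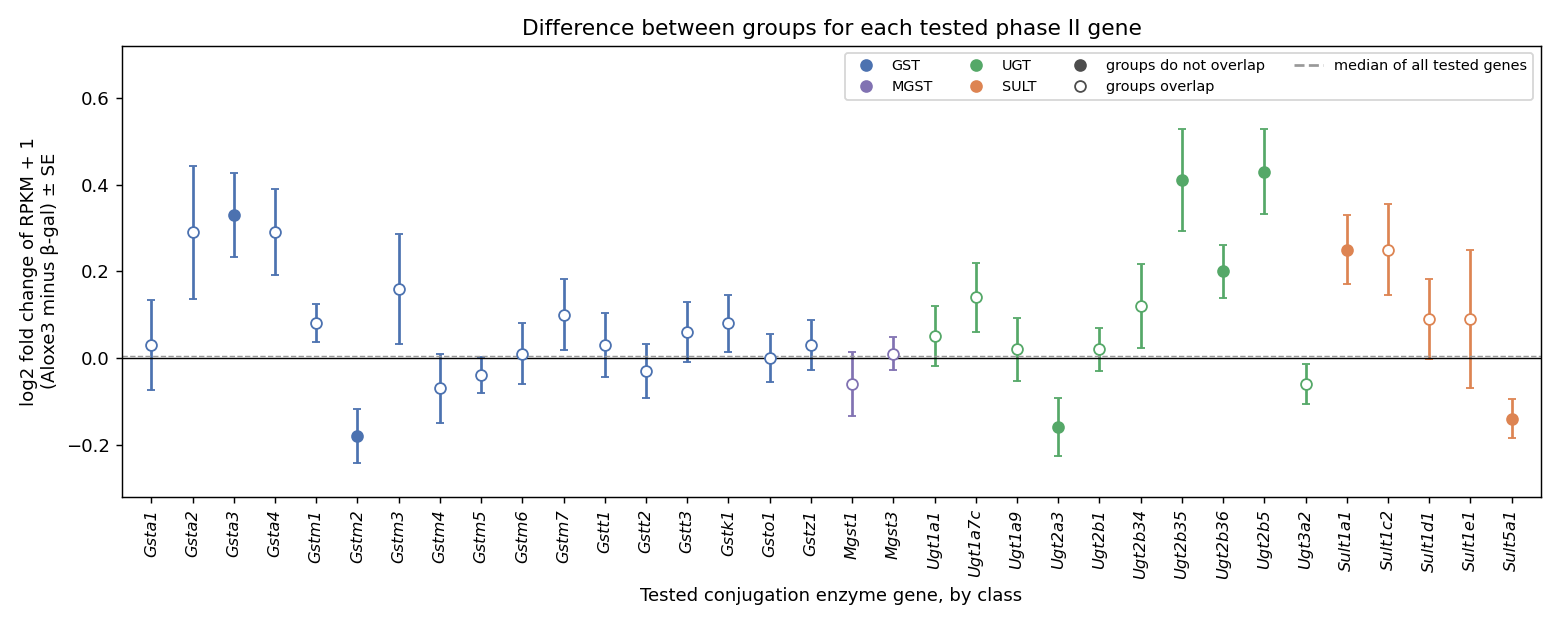
Difference between the groups for each of the 34 tested conjugation enzyme genes on the log2(RPKM + 1) scale, Aloxe3 minus β-gal, with bars of 1 SE, coloured by family. Filled points are genes whose groups do not overlap, and the dashed line is the median of all tested genes at 0.005. The points run from -0.18 (Gstm2) to 0.43 (Ugt2b5).

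Of the UGT2 enzymes, 6 of 9 were tested, and their 9 genes summed to 61.3 ± 5.31 RPKM with β-gal and 73.0 ± 7.53 with Aloxe3. Ugt2b5, a steroid and drug glucuronosyltransferase and the enzyme with the smallest p of the 34 tested, stood at 7.72, 8.63 and 9.46 RPKM with β-gal and at 13.3, 12.2 and 10.3 RPKM with Aloxe3. The groups did not overlap, and the lowest Aloxe3 library was 9, close to the highest β-gal library. The log2 fold change was 0.43 (SE 0.0972, limma adjusted p = 0.175, voom adjusted p = 0.0196), and the adjusted p ran from 0.0196 to 0.488 over 13 alternative settings. Leaving out β-gal replicate 1 gave a fold change of 0.36, and leaving out Aloxe3 replicate 9 gave 0.52.

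Ugt2b35 stood at 12.5, 14.8 and 17.2 RPKM with β-gal and at 20.6, 21.8 and 17.3 RPKM with Aloxe3. The groups were separated by only the small step from β-gal replicate 3 to Aloxe3 replicate 9. The log2 fold change was 0.41 (SE 0.118, limma adjusted p = 0.262, voom adjusted p = 0.0442), and leaving out 1 library at a time moved it between 0.30 and 0.51. The adjusted p ran from 0.0442 to 0.555 over its alternative settings. Ugt2b36 stood at 10.9, 11.8 and 12.5 RPKM with β-gal and at 14.5, 13.6 and 12.9 RPKM with Aloxe3. Here too the groups did not overlap, with a log2 fold change of 0.20 (SE 0.0608, limma adjusted p = 0.275, voom adjusted p = 0.150). Ugt2b35 and Ugt2b36 share under 1% of their windows with other genes, Ugt2b5 included.

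The 9 UGT2 genes and 3 SULT1 genes span 701.8 kb of chromosome 5, in the order Ugt2b34, Ugt2b1, Ugt2b35, Ugt2b36, Ugt2b5, Ugt2b37, Ugt2a3, Ugt2b38, Ugt2a2, Sult1b1, Sult1d1 and Sult1e1. Ugt2b34 stood at 18.2, 19.2 and 20.5 RPKM with β-gal and at 24.2, 21.4 and 18.0 with Aloxe3, so that the groups overlapped (log2 fold change 0.12, SE 0.0977, limma adjusted p = 0.647). Its fold change rested on single libraries, at 0.02 without Aloxe3 replicate 7 and 0.23 when replicate 9 was left out instead. Ugt2b1, given for its place in the cluster, averaged 2.89 ± 0.120 and 2.95 ± 0.105 RPKM, a log2 fold change of 0.02 (SE 0.0494, limma adjusted p = 0.885). Ugt2a3 stood at 3.56, 4.19 and 3.98 RPKM with β-gal and at 3.55, 3.50 and 3.11 with Aloxe3. Its groups were apart by the narrow step from 3.56 to 3.55 RPKM with the Aloxe3 libraries lower, the opposite direction to the run of Ugt2b35, Ugt2b36 and Ugt2b5, and the log2 fold change was -0.16 (SE 0.0664, limma adjusted p = 0.373). Differences of fold change between these genes were not tested.

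**Figure D4:**
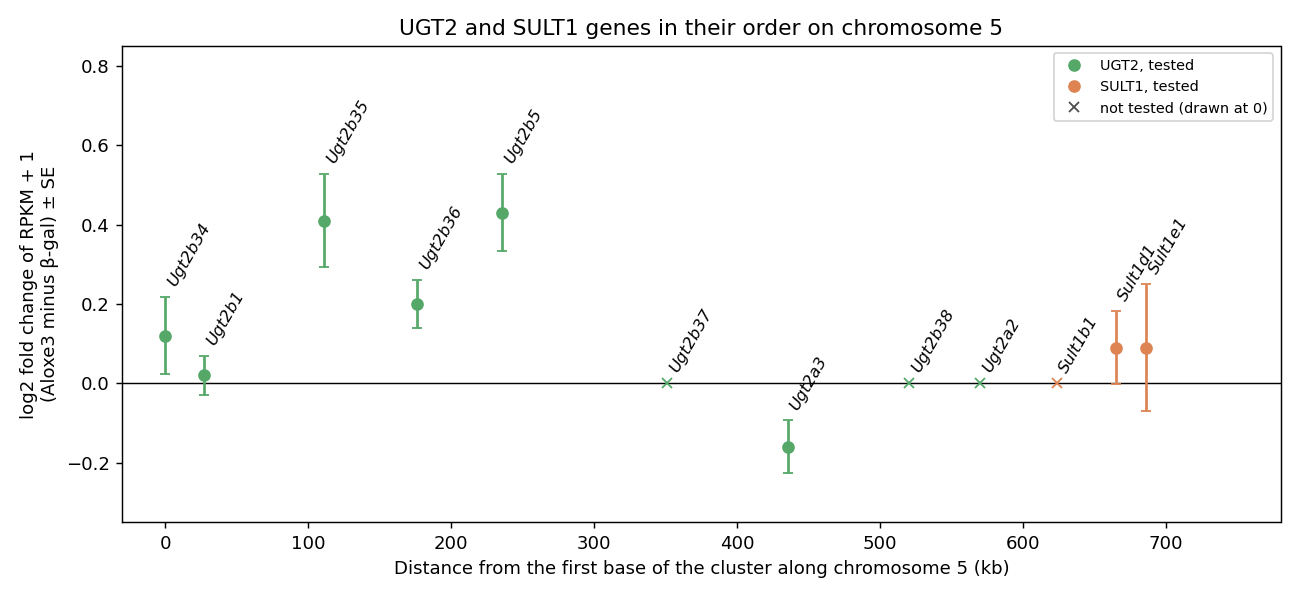
Fold change of the UGT2 (green) and SULT1 (orange) genes of chromosome 5 on the log2(RPKM + 1) scale with bars of 1 SE, against the distance of each gene from the first base of the cluster in kb. Crosses at 0 are genes too low to be tested. Ugt2b35, Ugt2b36 and Ugt2b5, between 111.1 and 235.2 kb, lie at 0.41, 0.20 and 0.43, and Ugt2a3 at 435.2 kb lies at -0.16.

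The UGT1 genes share their last exons, and 3 of 9 were tested. Ugt1a1, the bilirubin glucuronosyltransferase, stood at 0.975, 0.998 and 0.988 RPKM with β-gal and at 0.916, 1.06 and 1.19 with Aloxe3. Ugt1a9, which takes phenols and fatty acids, averaged 1.28 ± 0.157 and 1.31 ± 0.110 RPKM. Both pairs of groups overlapped (log2 fold changes 0.05, SE 0.0688, and 0.02, SE 0.0730, limma adjusted p = 0.808 and 0.934). The 9 UGT1 genes summed to only 3.54 ± 0.0688 and 3.94 ± 0.156 RPKM, a level that leaves out the reads of the shared exons, while the length in the RPKM of Ugt1a1 was the full 2224 bases of the gene. Ugt3a2, a member of the family that uses other sugars such as N-acetylglucosamine or glucose, averaged 5.81 ± 0.186 and 5.52 ± 0.234 RPKM (log2 fold change -0.06, SE 0.0460, limma adjusted p = 0.601).

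All 4 alpha GSTs were tested and all had a fold change above 0, with a median of 0.289, and they summed to 47.5 ± 5.34 RPKM with β-gal and 57.1 ± 6.31 with Aloxe3. Gsta3, known for the detoxification of aflatoxin epoxide in mouse liver, stood at 4.95, 5.69 and 6.52 RPKM with β-gal and at 7.73, 8.01 and 6.56 RPKM with Aloxe3. As with Ugt2b35, the highest β-gal library (replicate 3) and the lowest Aloxe3 library (replicate 9) were almost level. The log2 fold change was 0.33 (SE 0.0974, limma adjusted p = 0.269, voom adjusted p = 0.0520), with a range of 0.25 to 0.41 as each library was left out. Gsta4 stood at 27.9, 32.6 and 35.8 RPKM with β-gal and at 43.6, 38.8 and 35.6 with Aloxe3. Its groups overlapped by replicates 3 and 9 (log2 fold change 0.29, SE 0.0989, limma adjusted p = 0.313). As each library was left out the fold change of Gsta4 ran from 0.19 to 0.37. Gsta1 stood at 8.72, 8.68 and 9.76 RPKM and at 11.1, 8.16 and 8.67, a log2 fold change of 0.03 (SE 0.103, limma adjusted p = 0.933). Gsta2, an inducible copy named here after its values were seen, stood at 0.448, 0.734 and 0.661 RPKM and at 1.46, 0.922 and 0.611, at most 44 reads (limma adjusted p = 0.476). Most windows of Gsta1 and many of Gsta2 are shared with each other or with Gm3776 and Gm10639, which limits both.

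**Figure D5:**
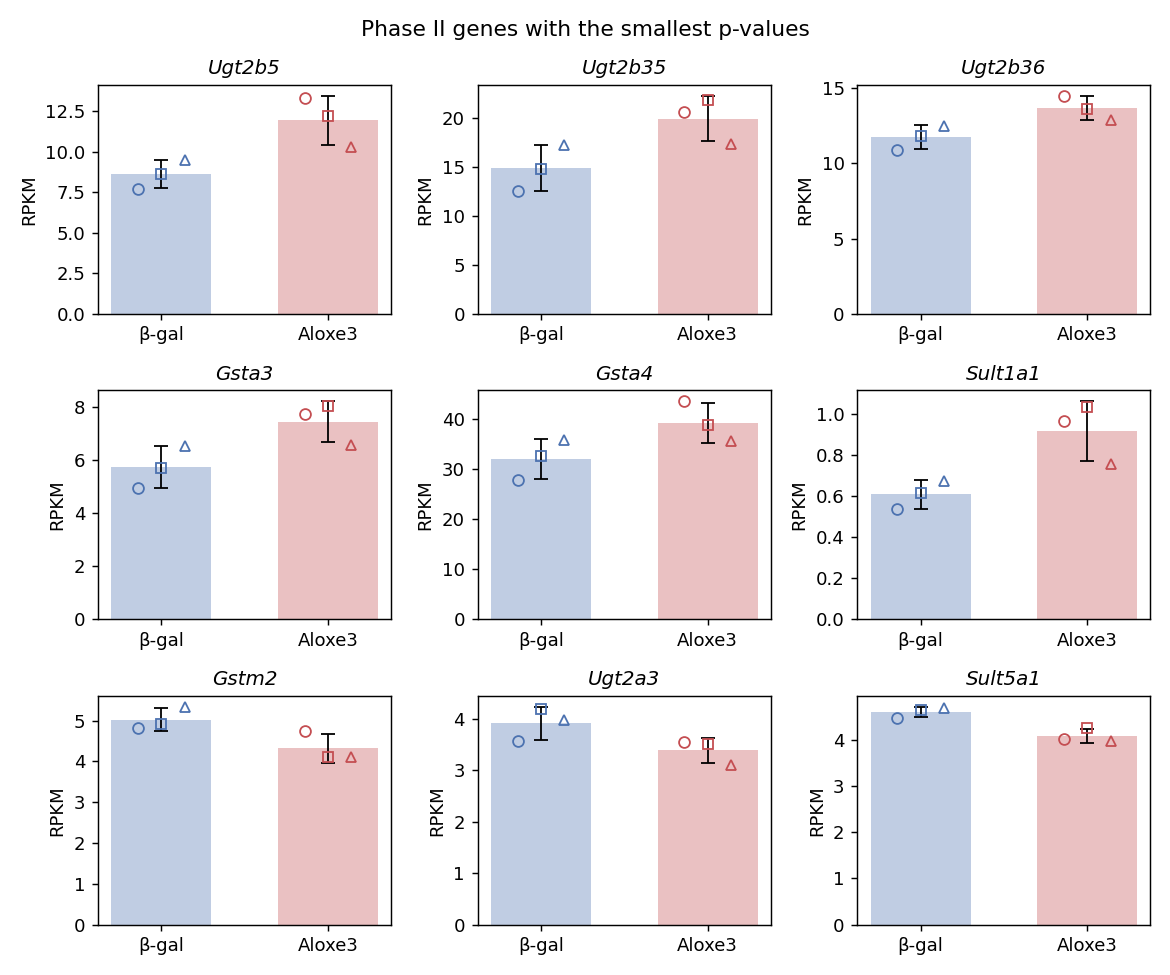
RPKM of the 9 conjugation enzyme genes with the smallest unadjusted p, with bars for the group means from 0, black bars for the SD and symbols for the 3 libraries of each group (circle, square and triangle in the order of their replicate numbers). In the upper 2 rows the Aloxe3 bars are higher, with Ugt2b5 at 11.9 against 8.61, and in the lower row they are lower, with Gstm2 at 4.33 against 5.03. None of the 9 passed the adjusted threshold with limma.

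The mu GSTs lie together on chromosome 3, and all 7 were tested. Gstm2 stood at 4.82, 4.92 and 5.34 RPKM with β-gal and at 4.74, 4.11 and 4.12 with Aloxe3. The groups did not overlap, with the Aloxe3 libraries lower, and the log2 fold change was -0.18 (SE 0.0616, limma adjusted p = 0.313, voom adjusted p = 0.305). Gstm1, with roughly the substrates of Gstm2, pointed the other way by 0.08 (SE 0.0433, limma adjusted p = 0.497), its groups overlapping. Gstm5 averaged 15.5 ± 0.539 and 15.0 ± 0.501 RPKM (log2 fold change -0.04, SE 0.0421, limma adjusted p = 0.726). The 7 genes summed to 106 ± 1.66 and 109 ± 4.89 RPKM, and 4 of the 7 fold changes were above 0.

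In the other GST classes and the MGSTs the groups overlapped for every tested gene. Gsto1 averaged 84.3 ± 5.95 and 84.4 ± 2.90 RPKM, a log2 fold change of 0.00275 (SE 0.0557) whose sign turned under rescaling to the same median. Gstz1, which isomerizes maleylacetoacetate in tyrosine breakdown, averaged 15.6 ± 0.669 and 16.0 ± 1.20 RPKM. Gstt1 averaged 18.6 ± 0.592 and 19.1 ± 2.18 RPKM, and Gstt2 12.1 ± 0.265 and 11.8 ± 1.09. These 3 fold changes lay between -0.03 and 0.03 with SEs of 0.0582 to 0.0740. For Mgst1 the difference was -0.06 (SE 0.0737, limma adjusted p = 0.767) with Aloxe3 replicate 9 the only library below 169 RPKM, and without that library it was 0.03. Mgst3, which acts on leukotriene precursors, averaged 7.18 ± 0.156 and 7.26 ± 0.0709 RPKM.

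Of the SULTs 5 of 21 were tested. Sult1a1, the phenol sulfotransferase, stood at 0.535, 0.614 and 0.673 RPKM with β-gal and at 0.962, 1.03 and 0.753 with Aloxe3. The groups did not overlap, at 47 reads or fewer per library, and the log2(RPKM + 1) fold change of 0.25 (SE 0.0791, limma adjusted p = 0.289, voom adjusted p = 0.231) understates the ratio of such low levels. Sult1c2, outside the rule for named genes and added after its values were seen, was the seventh enzyme with an unadjusted p under 0.05 in this direction, at 1.06 ± 0.263 and 1.45 ± 0.178 RPKM, with overlapping groups (limma adjusted p = 0.376). Sult5a1, whose substrates are little known, stood at 4.48, 4.65 and 4.68 RPKM with β-gal and at 4.02, 4.25 and 3.97 with Aloxe3. Here the Aloxe3 libraries were all lower, and the log2 fold change was -0.14 (SE 0.0444, limma adjusted p = 0.289, voom adjusted p = 0.407). Sult1e1 spread widely in both groups, at 6.20, 8.34 and 9.10 and at 8.58, 10.2 and 6.70 RPKM, and Sult1d1, which sulfates catecholamines, averaged 3.63 ± 0.472 and 3.93 ± 0.422 RPKM. Neither passed a threshold (limma adjusted p = 0.846 and 0.711).

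Genes around the conjugation enzymes were read from 5 lists: supply of the donor molecules, other conjugating enzymes, enzymes that reverse or precede conjugation, carriers of the conjugates, and regulators. Of their 76 genes 61 were tested, and 1 passed the adjusted threshold with limma, where 0.394% of all tested genes did. It was Mat1a, the liver methionine adenosyltransferase that makes the methyl donor S-adenosylmethionine, at 7.39, 7.30 and 7.80 RPKM with β-gal and 11.1, 10.1 and 10.1 with Aloxe3. All 3 Aloxe3 libraries lay well above all 3 β-gal libraries, with a log2 fold change of 0.43 (SE 0.0489, limma adjusted p = 0.0226, voom adjusted p = 0.000676). With 1 library left out the adjusted p ran from 0.0519 to 0.128 and the call was lost in each of the 6 fits, with log2 fold changes of 0.39 to 0.45, as it was without a filter on low values (adjusted p = 0.142).

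With voom 4 of these 61 genes passed, where 1.37% of all tested genes did. They were Mat1a, Gclc, Nfe2l2 and Slc35d1, the last of them named after its values were seen. Gclc, the catalytic subunit of the enzyme that limits glutathione synthesis, stood at 73.9, 86.6 and 92.3 RPKM with β-gal and at 119, 117 and 101 with Aloxe3. The groups did not overlap, and the log2 fold change was 0.41 (SE 0.0918, limma adjusted p = 0.161, voom adjusted p = 0.00604). Gclm, the modifier subunit of the same enzyme, given for comparison, averaged 21.8 ± 1.55 and 22.5 ± 1.31 RPKM (limma adjusted p = 0.815). Nfe2l2, encoding NRF2, averaged 48.1 ± 1.52 and 55.8 ± 2.02 RPKM (log2 fold change 0.21, SE 0.0412, limma adjusted p = 0.119, voom adjusted p = 0.0208). Its 3 β-gal values all lay below its 3 Aloxe3 values. Slc35d1, which carries UDP-glucuronic acid into the endoplasmic reticulum, averaged 4.54 ± 0.176 and 5.30 ± 0.149 RPKM (log2 fold change 0.19, SE 0.0449, limma adjusted p = 0.201, voom adjusted p = 0.0493).

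Of the other tested genes of these lists none passed the adjusted threshold with limma or voom. Nr1h4, encoding the bile acid receptor FXR and named after its values were seen, stood at 3.97, 5.48 and 5.48 RPKM with β-gal and at 6.58, 5.93 and 6.14 with Aloxe3, groups that did not overlap (log2 fold change 0.28, SE 0.103, limma adjusted p = 0.331, voom adjusted p = 0.167). Without β-gal replicate 1 its fold change was 0.16. Of the 16 tested genes of donor supply 11 had a fold change above 0, and of the 8 other conjugating enzymes 4. It was above 0 for 7 of the 12 hydrolysing and reducing enzymes, 6 of the 10 carriers and 10 of the 15 regulators. Together these were 38 of 61, where 52.4% of all tested genes had a fold change above 0. Nnmt, nicotinamide N-methyltransferase, averaged 14.2 ± 0.181 and 13.1 ± 0.712 RPKM, and Tpmt, thiopurine methyltransferase, 4.18 ± 0.238 and 4.58 ± 0.322. Ces2a, a carboxylesterase, averaged 12.0 ± 0.751 and 10.7 ± 0.461 RPKM, and Gusb, the lysosomal glucuronidase that removes glucuronic acid, 39.0 ± 0.780 and 36.7 ± 1.73. Abcc2, the canalicular pump for glucuronide and glutathione conjugates, averaged 47.6 ± 2.21 and 51.3 ± 3.32 RPKM, and Abcc6, a related pump, 0.665 ± 0.0103 and 0.787 ± 0.0516. Mafk, a small MAF partner of NRF2, averaged 23.0 ± 0.899 and 20.9 ± 0.193 RPKM. The limma adjusted p of these 7 genes was between 0.280 and 0.533.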

How the data were processed

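Polyadenylated RNA was sequenced as single reads of 50 bases. Per the study's methods and the labels, the authors aligned reads with STAR 2.0.4b to Ensembl release 76 (GRCm38) and counted uniquely aligned unambiguous reads with featureCounts 1.4.5. The deposited table holds RPKM per Ensembl gene; how the counts became RPKM is not given in the sources used here. Of 41388 genes 40340 were matched by identifier to GENCODE M21, which supplied symbols and positions.

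Library sizes were recovered from the whole-number steps of the RPKM values (tolerance 0.02 reads), and the reads derived from them summed to 99.93% of each library. For 16548 genes the derived reads used the GENCODE length. For another 8441, Ugt2b35 among them, no GENCODE length matched, and the smallest length that gave whole reads was used. The main test was limma 3.58.1 in R 4.3.3 (trended variance) on log2(RPKM + 1), 3 Aloxe3 against 3 β-gal libraries, over the 12693 genes that averaged 0.5 RPKM or more, with Benjamini-Hochberg adjustment over all of them and a threshold of 0.05. A fold change on this scale understates that of low genes. Voom on the derived reads, other pseudocounts, filters and scalings, and leaving out each library were alternatives. On simulated data for this comparison (12722 genes) limma found 85 of 90 genes with a change of 2-fold or more. It found 13 of the 45 with the smallest change, while voom found 86 and 26. Of the unchanged genes limma called 13 and voom 7. Every simulated gene had the same dispersion of 0.003, and libraries of a group differed only in depth otherwise. These shares need not hold for noisier genes.

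Named enzymes were the 2 highest tested genes of each class and the 5 with the smallest p in each direction; named related genes were the 2 of each list with the smallest p. Ugt2b1, Gclm, the marker genes given by name and the genes of the other observations fall outside this rule and were chosen after their values were seen, as were those marked so in the text. The enzymes and the lists were chosen with earlier results of these data known. Start windows are from RefSeq (GRCm38.p6), and shared windows were counted over GENCODE M21 transcripts. All libraries came from 1 sequencing run, and the labels name no other batch.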

Additional observations from a re-analysis of the deposited data

How the results depend on the processing

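No paired analysis was run, because the labels do not say whether any β-gal and Aloxe3 libraries came from the same preparation of cells. With limma no conjugation enzyme passed the adjusted threshold under any of the 12 alternatives other than voom, which called 2. The number of enzymes lower at an unadjusted p under 0.05 went from 3 to 0 with the filter raised to 5 RPKM, to 1 with voom, and to 1 to 3 with a library left out (1 without β-gal replicate 3, Aloxe3 replicate 8 or Aloxe3 replicate 9), while the number higher ran from 5 to 8. The genes past the threshold in the related lists went from 1 to 0 without a filter, to 4 with voom and to 0 with any library left out. The UGT median of 0.084 became 0.027 without a filter and 0.202 with the filter at 5 RPKM, where fewer genes were tested. The SULT median of 0.093 ran from 0.006 (without β-gal replicate 1) to 0.228 (without Aloxe3 replicate 9) with a library left out. Among the named enzymes the sign turned for Gsto1 under rescaling (-0.01) and for Ugt1a9 under quantile normalization (-0.03). With a library left out it turned, over these ranges, for Gsto1 (-0.05 to 0.05), Gsta1 (-0.09 to 0.11), Gstt1 (-0.06 to 0.10), Gstt2 (-0.09 to 0.03), Gstz1 (-0.03 to 0.07), Mgst1 (-0.11 to 0.03), Mgst3 (-0.00147 to 0.02), Sult1e1 (-0.05 to 0.23) and Ugt1a9 (-0.03 to 0.07). The cause was not tested. Over all genes the calls went from 50 to 7 without a filter, to 174 with voom and to 6 to 19 with a library left out. The 32 enzymes under the filter had 43 reads or fewer per library, and 12 of them had none.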

Other observations

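Some genes usually abundant in mouse liver were at or near 0 in these libraries. Gstp1, a GST of bile duct and male liver, had at most 1 read in any library, and of its 50-base windows 33.7% are shared, mostly with Gstp2. Nr1i3, encoding the receptor CAR, averaged 0.0289 ± 0.00710 RPKM with β-gal and 0.0515 ± 0.0165 with Aloxe3, against 1.82 ± 0.136 and 1.99 ± 0.303 for Nr1i2, encoding PXR, and 26.9 ± 1.64 and 27.6 ± 1.91 for Hnf4a. Gstcd, whose name holds a GST domain but not a class number, averaged 5.09 ± 0.112 and 4.99 ± 0.222 RPKM, and Ugt8a, the ceramide galactosyltransferase, had at most 3 reads in any library.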
